A study of Mus musculus with 3 samples.

Results

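A set of 10 genes of multipotent progenitors and of the earliest thymocytes were followed in double-positive (DP) thymocytes: Kit, Flt3, Cd34, Gata2, Hhex, Mef2c, Bcl11a, Igll1, Meis1 and Mpo. They were chosen by name, as genes thought to be off at this stage, with earlier results of these data known. Each was represented by the probe set that carries its symbol alone, the brightest where there are several. All 10 matched, with 1 probe set each, out of 19938 genes with a probe set of their own. The mice were wild-type C57BL/6 animals, 5 to 6 weeks old, in 3 cohorts of littermates, and 1 array was hybridised per cohort with total RNA of CD4+ CD8+ thymocytes sorted on beads. Each cohort may thus be a pool of animals, and the 3 arrays form the only group. There is no array of an earlier stage here, so whether a gene lost expression on the way to the DP stage was not measured. The arrays show only whether its signal could be told from background in DP cells.

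Blood progenitors that enter the thymus carry the receptors Kit and Flt3 and a set of transcription factors that keep several fates open. Under Notch signalling these cells commit to the T lineage, and the progenitor program is largely shut down before the pre-T cell receptor checkpoint that leads to the DP stage. Some of its genes, when they stay on in thymocytes, are known to take part in T cell leukaemia, Mef2c, Hhex and Meis1 among them.

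The deposited values are log2 expression values. A background limit was set on each array from 65 probe sets, for 64 genes that belong to organs such as liver, heart or brain. Their 95th percentile was 6.96 on array 1, 6.98 on array 2 and 6.95 on array 3, and higher values are called above background. The medians of those probe sets were 5.86, 5.86 and 5.80. Probe sets differ in affinity, so each gene was read against these limits and not against another gene. All 15 measured DP stage genes lay above the limit on every array, Rag1, Rag2, Cd4 and Cd8a among them. Arrays 2 and 3 were closer to each other (Pearson's r = 0.996 across 28939 probe sets, with 31 differing by more than 1 log2 unit) than to array 1 (r = 0.993 with either, 139 and 123 probe sets). Array 1 stood apart in Xist (11.65, against 5.40 and 5.68 on arrays 2 and 3), in the Y-linked Eif2s3y (4.21, against 10.29 and 10.08) and in Fos (9.39, against 7.86 and 8.27). Xist and Eif2s3y read as female cells on array 1 and as male cells on arrays 2 and 3. Sex and cohort thus cannot be told apart wherever array 1 differs from the others. The counts of list genes above the limit, the members' levels and the variance test were therefore also computed without array 1.

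None of the 10 progenitor genes lay above background on any array. They were chosen as thought to be off, with earlier results known, so this count is no test of that expectation. Over all 19938 genes, 46.6% were above their limit on each of the 3 arrays, and 49.8% were above it on no array. The count of members above the limit on all arrays was also 0 with the 99th percentile as the limit, which 41.4% of genes exceeded on all arrays. It was 0 as well with each array left out in turn. Both follow from no member being above the first limit on any array. With the background median plus 1 log2 unit as the limit, which 48.1% of genes exceeded on all arrays, 0 members did so on all arrays, 3 did on array 2 and 1 on array 3. The median of the 10 genes' 3-array means was 6.21, against 6.85 over all genes. Their single values ran from 5.34 to 6.96. In bulk RNA, few cells with a transcript and little transcript per cell cannot be told apart, so these values do not show that no DP cell carried one.

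The distance under the limit differed from gene to gene. For Kit, Flt3, Gata2, Bcl11a and Igll1 it was less than 0.6 log2 units on every array, and for Cd34, Hhex, Mef2c, Meis1 and Mpo more than 0.9. The distance says how near a gene's own signal came to being called. It gives no order of expression between genes, since it also depends on each probe set's affinity.

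**Figure D1:**
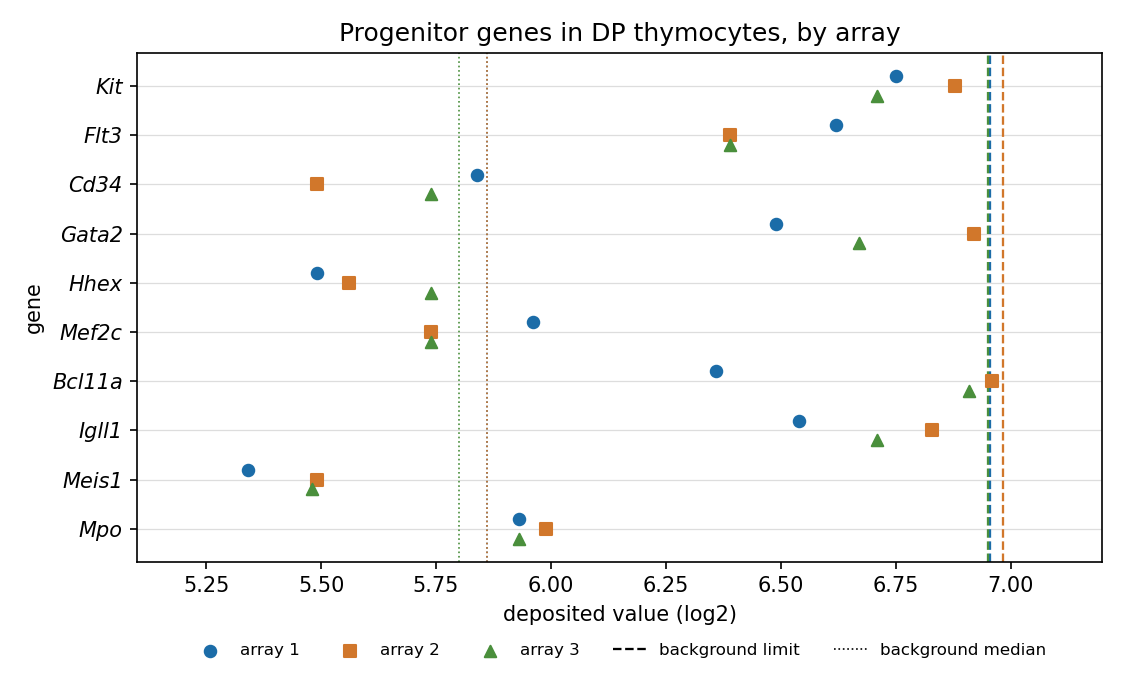
The deposited log2 value (horizontal axis) of each progenitor gene (vertical axis) on arrays 1, 2 and 3, with the background limit of each array as a dashed line and the median of the other-organ probe sets as a dotted line, in that array's colour. All points lie left of their own array's limit, and Bcl11a on array 2, at 6.96 against 6.98, is the nearest.

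Kit, the receptor for stem cell factor and a defining marker of the earliest thymocytes, had values of 6.75, 6.88 and 6.71 on arrays 1, 2 and 3 (probe set 10522530; 6.78 ± 0.09, mean ± SD, n = 3 here and below). It was 0.206, 0.104 and 0.240 log2 units under the limit. The values of the 3 cohorts lay within 0.17 log2 units of each other. Flt3, the receptor for Flt3 ligand that marks lymphoid-primed progenitors and dendritic precursors, had 6.62, 6.39 and 6.39 (probe set 10535780; 6.47 ± 0.13). Array 1 was the high one, and its gap to the limit was 0.336.

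Most transcripts of signalling proteins below these receptors were above background, and those of the receptors were not. The list held 16 measured genes for adaptors, kinases, phosphatases, STAT factors and SOCS proteins that act downstream of Kit and Flt3. Of these, 14 lay above background on all arrays, also with the 99th percentile as the limit. Over all genes the shares were 46.6% and 41.4%. The means of these 14 ran from 8.47 to 11.75. The other two were the adaptor Gab2 (6.52, 6.73 and 6.63) and the feedback inhibitor Socs2 (6.60, 6.86 and 6.38). These signalling proteins also serve antigen and cytokine receptors. Of the ligands, Flt3l was above background, with 8.44, 8.30 and 8.23 (8.32 ± 0.11). Kitl, which encodes stem cell factor, was not, with 4.49, 4.62 and 4.67 (4.59 ± 0.09). The relatives of Kit and Flt3 among the class III receptor tyrosine kinases, named here after their values were seen, were at or near background. Csf1r had 6.54, 6.25 and 6.51, Pdgfra had 5.54, 5.86 and 5.67, and Pdgfrb had 7.01, 7.25 and 7.09. Pdgfrb exceeded the limit on all arrays but not the 99th percentile of the other-organ probe sets.

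Cd34, a sialomucin on the surface of progenitors and of endothelium, had 5.84, 5.49 and 5.74 (probe set 10352905; 5.69 ± 0.18). It was lowest on array 2, and it was 1.116, 1.494 and 1.21 log2 units under the limit on arrays 1, 2 and 3. Of its relatives, named after their values were seen, Podxl was below background (6.33, 6.47 and 6.41) and Podxl2 above it (7.60, 7.66 and 7.48).

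Gata2, a zinc finger factor needed for stem and mast cells, had 6.49, 6.92 and 6.67 (probe set 10539873; 6.69 ± 0.22). Array 2 came within 0.064 of the limit and array 1 within 0.466. Its relative Gata3, which thymocytes need for T-lineage commitment, lay above background on all arrays, with 10.38, 10.46 and 10.47 (10.44 ± 0.05). Gata1, of erythroid and mast cells, had 6.32, 6.44 and 6.31, and Gata5 had 6.32, 6.27 and 6.27, both below background. Gata4, a factor of heart and gut, had 7.05, 7.10 and 7.19. It passed the limit but not the 99th percentile.

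Hhex, a homeobox factor of progenitors and B cells, had 5.49, 5.56 and 5.74 (probe set 10462818; 5.60 ± 0.13). Array 3 was the highest, and it was still 1.21 under the limit. Mef2c, a MADS-box factor that favours lymphoid over myeloid fates in progenitors, had 5.96, 5.74 and 5.74 (probe set 10406434; 5.81 ± 0.13). Array 1 was the high one. Its relatives Mef2a and Mef2d, named after their values were seen, lay above background on all arrays, with 11.39, 11.27 and 11.37 for Mef2a and 11.19, 11.00 and 10.93 for Mef2d.

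Bcl11a, a zinc finger repressor required for lymphoid progenitors and B cells, had the widest spread of the 10 genes, with 6.36, 6.96 and 6.91 (probe set 10374727; 6.74 ± 0.33). Arrays 2 and 3 lay 0.024 and 0.040 under the limit and array 1 lay 0.596 under it. With the background median plus 1 as the limit, Bcl11a exceeded it on arrays 2 and 3, and Kit and Gata2 did so on array 2 alone. Its relative Bcl11b, the factor that fixes T-lineage identity, had 11.60, 11.63 and 11.67 (11.63 ± 0.04).

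Meis1, a homeobox factor that works with Hox and Pbx proteins in stem cells, had 5.34, 5.49 and 5.48 (probe set 10384504; 5.44 ± 0.08). It was at least 1.47 log2 units under the limit on every array. Of 13 measured Meis, Pbx, Pknox and Hox genes, 5 (38.5%) lay above background on all arrays, against 46.6% of all genes. Meis3 had 8.47, 8.54 and 8.46, Pbx2 had 8.68, 8.91 and 8.75, and Pbx4 had 8.03, 8.15 and 8.04. Pknox1, another partner of Pbx proteins, had 9.18, 9.35 and 9.43. Hoxb3, with 7.01, 7.17 and 7.09, was not above the 99th percentile, which left 4, where 41.4% of all genes passed. The progenitor gene Hoxa9, named after its values were seen, had 5.92, 6.50 and 6.20.

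Igll1 encodes lambda5, part of the surrogate light chain that pairs with the immunoglobulin heavy chain on pre-B cells, and its transcript is also found in early thymocytes. Its values were 6.54, 6.83 and 6.71 (probe set 10438060; 6.69 ± 0.15), and array 2 came within 0.154 of the limit. Of 11 measured surrogate light chain and pre-B genes, Vpreb2 (7.56, 7.80 and 7.40) and Cd79b (8.73, 8.79 and 8.83) lay above background on all arrays. These are 18.2% of that list, against 46.6% of all genes. Vpreb1, the other partner of lambda5, had 6.18, 6.34 and 6.25. Vpreb1 and Vpreb2 are close copies of each other, so signal from one may reach the other's probes and the split between them is uncertain. Cd79a, which B cells need beside Cd79b, had 5.19, 4.92 and 5.17.

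Mpo, the peroxidase of neutrophil and monocyte granules, is transcribed in myeloid progenitors and at low level in multipotent ones. It had 5.93, 5.99 and 5.93 (probe set 10380174; 5.95 ± 0.03), the narrowest spread of the 10 genes. None of 13 granule protein and myeloid genes lay above background on any array, like 49.8% of all genes, with a list median of 5.99. Among them, the proteases Elane, Prtn3 and Ctsg had 3-array means of 6.08 ± 0.13, 6.14 ± 0.10 and 5.04 ± 0.18, and lysozyme, Lyz2, had 6.47 ± 0.23.

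Other genes of the same stages were more mixed. Among 23 further stem and progenitor genes, 14 (60.9%) were above the limit throughout, against 46.6% of all genes, and 9 on no array. With the 99th percentile as the limit the count was 8, where 41.4% of all genes passed. Runx1 and Myb of this list are also counted among the T-lineage regulators below. Hlf, Mecom and Procr, markers of stem cells, were below background, with means of 6.12 ± 0.03, 5.56 ± 0.04 and 5.41 ± 0.03. Slamf1, which T cells also carry, was above it at 9.87 ± 0.07. The bHLH and LIM factors Lyl1 (7.19, 7.17 and 7.49), Tal1 (7.06, 7.17 and 7.33) and Lmo2 (7.05, 7.26 and 7.43), named after their values were seen, exceeded the limit on all arrays but not the 99th percentile.

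Of 19 early thymocyte genes outside the 10, 9 were above the limit throughout, 4 on some arrays and 6 on no array. The 9 are 47.4% of the list, near the 46.6% of all genes. With the 99th percentile 5 passed throughout, where 41.4% of all genes did. Lyl1, Lmo2 and Erg are in both this list and the stem and progenitor list. Dtx1, a Notch target, had 8.34 on each array, and Notch3 had 8.97, 8.67 and 8.63. Il2ra, the CD25 chain of the DN2 and DN3 stages, had 6.98, 6.28 and 6.54, above the limit on array 1 alone. Cd44 had 7.66, 6.84 and 7.05 and was under the limit on array 2. Hes1, a Notch target named after its values were seen, had 8.11, 6.66 and 6.03. Array 1 was thus the highest for Il2ra, Cd44 and Hes1, as it was for Flt3, Cd34 and Mef2c, whereas the other members were not highest there. The early list deviated from the genes' own means by a median of 0.09, -0.09 and -0.06 on arrays 1, 2 and 3, and the 10 progenitor genes by -0.06, 0.05 and -0.002. All 11 measured T-lineage regulators lay above background on every array, with Lef1 at 11.39 ± 0.15 and Runx1 at 10.09 ± 0.12.

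**Figure D2:**
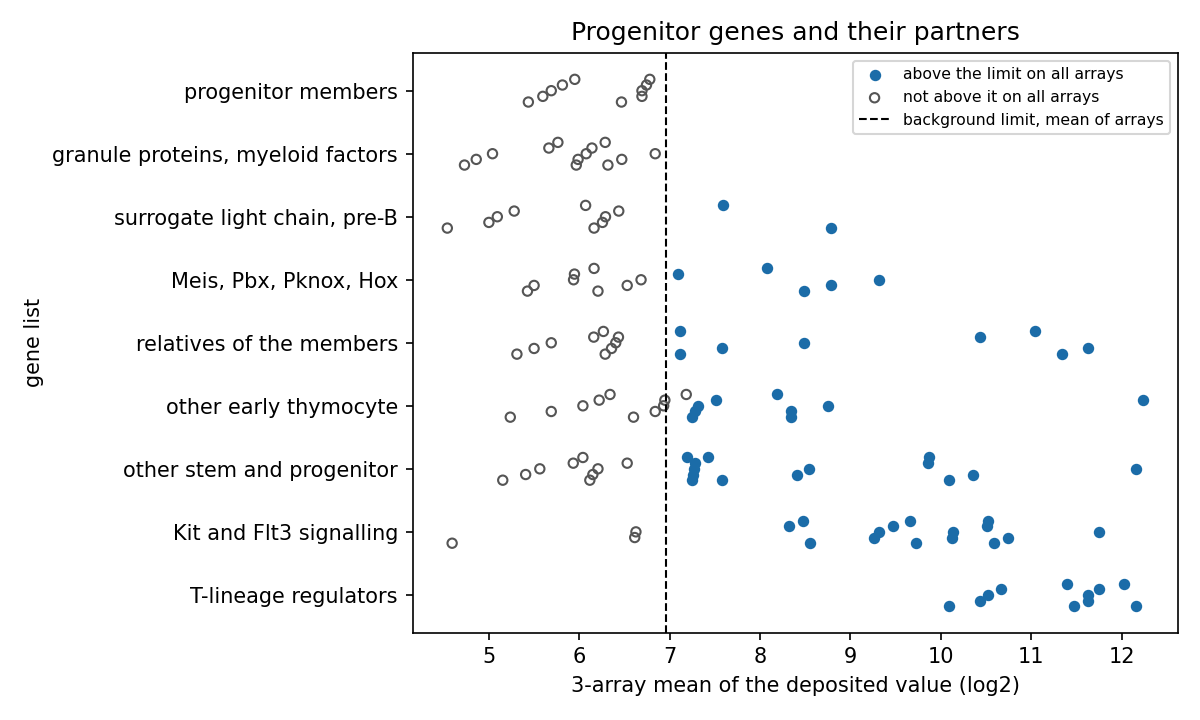
The 3-array mean log2 value (horizontal axis) of each measured gene in 9 lists (vertical axis), filled where the gene exceeded the background limit on all 3 arrays and open where it did not, with the limit's mean over arrays as a dashed line. All 10 progenitor genes and all 13 granule and myeloid genes are open, and all 11 T-lineage regulators are filled.

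None of the 10 passed the test of variance between arrays, in which limma's fit over 28939 probe sets called 6 (0.0207%) at a Benjamini-Hochberg adjusted p under 0.05. The members' adjusted p in limma's test ran from 0.988 to 0.999. At an unadjusted p under 0.05, Bcl11a was the only member in limma's test, against 4.66% of all probe sets. Its highest value was 1.52-fold its lowest. Of the 10 genes Bcl11a alone had a range over arrays above 0.5 log2 units, as did 9.76% of the genes above background on no array. An SD as large as that of Bcl11a was found in 3.97% of genes above background on no array, and one as large as that of Mpo in 94.7%. The members' median SD was 0.131, against 0.126 for genes above background on no array. These SDs are those of signal under the limit and do not show that expression was alike between the cohorts.

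No array was high or low for all members. Array 1 alone gave the lowest value for 5 of them, Gata2, Hhex, Bcl11a, Igll1 and Meis1, against 37.8% of genes above background on no array. It alone gave the highest for Flt3, Cd34 and Mef2c, against 30.6%. Array 2 alone gave the highest for 6, against 36.1%. As all these values lie under the limit, their order over arrays includes background signal.

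**Figure D3:**
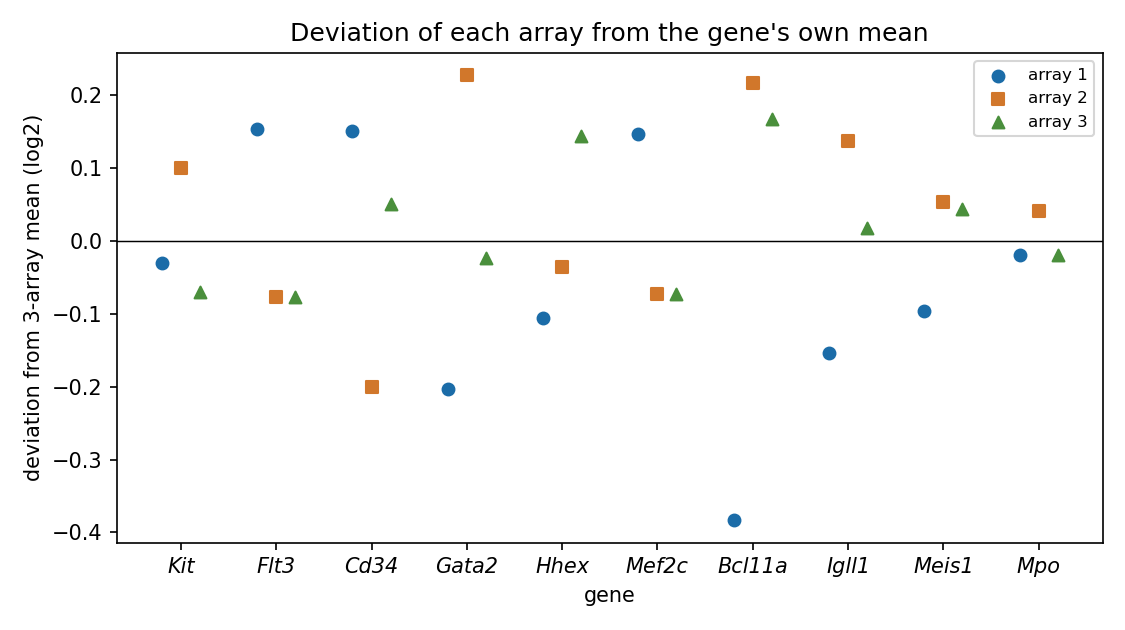
The deviation of each array's log2 value from the gene's own 3-array mean (vertical axis) for the 10 progenitor genes (horizontal axis). Bcl11a on array 1, at -0.38, lies farthest from 0, and the arrays change order from gene to gene.

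How many marker genes of non-T cells exceeded the limit varied between cell types. Over all genes, 46.6% exceeded it on all arrays (41.4% with the 99th percentile) and 49.8% on no array. Among 14 genes that mark macrophages or dendritic cells, 3 class II genes exceeded it on every array, 2 others on some and 9 on none. The 3 were H2-Eb1 (8.82, 7.77 and 8.40), Cd74 (8.83, 7.27 and 8.05) and H2-Ab1 (9.26, 7.91 and 8.50). The 2 others, named after their values were seen, were Itgam (6.75, 7.02 and 6.67) and H2-Aa (8.44, 6.75 and 7.81). Itgam passed on array 2 alone and H2-Aa on arrays 1 and 3. The list's summed linear level was 2570, 1383 and 1861 on arrays 1, 2 and 3. H2-Ab1, H2-Eb1, Cd74 and H2-Aa had the highest means and SDs of the list, so the sum mainly follows these class II genes. This sum was highest on array 1, as were the members Flt3, Cd34 and Mef2c, whereas 5 members were lowest there. The part of dendritic cells in the members' values was not tested. Csf1r, Itgax and Adgre1 were among the 9 genes of that list under the limit on every array. None of 9 granulocyte genes and none of 6 mast cell and basophil genes, Cpa3, Fcer1a, Ms4a2 and Mcpt8 among them, exceeded the limit on any array. Of 7 B cell markers, Cd79b alone did. Of 9 endothelial and stromal markers, Pecam1, Col1a1, Col1a2 and Pdgfrb did on all arrays (2 with the 99th percentile), with Cdh5 and Kdr, which define endothelium, at 5.84 ± 0.19 and 5.65 ± 0.03. Of 9 thymic epithelial markers, Ly75 and Cldn4 did on all arrays, 4 on some and 3 on no array, and of 5 erythroid ones Tfrc did.

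The starts of the 10 genes ran from CpG-poor to CpG-rich, as do those of genes in general. RefSeq windows (GRCm38.p6) from 250 bases before to 50 after a start site were found for all 10 genes, 14 windows in all. A window was called CpG-rich where its observed over expected CpG ratio was at least 0.6 and its GC content at least 50%, and a gene with several windows was represented by the one with most CpG. By that rule 5 of the 10 were CpG-rich: Kit, Flt3, Gata2, Hhex and Bcl11a. This is close to the share among all 15562 named genes with a window, 52.5%. Of those genes, 72.0% of the CpG-rich ones lay above background on all arrays, against 21.8% of the others. CpG-rich starts were found for 78.5% of the genes above background on all arrays and for 26.6% of those above it on none. The 5 are thus among the 24.5% of CpG-rich genes that were above background on no array. The CpG count ran from 2 of 300 bases for Igll1 and Mpo to 37 for Hhex. Meis1, with 15 CpG and a ratio of 0.589, fell just short of the rule, as did Mef2c with 10 CpG, a ratio of 0.612 and a GC content of 47%. Cd34 had 7.

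**Figure D4:**
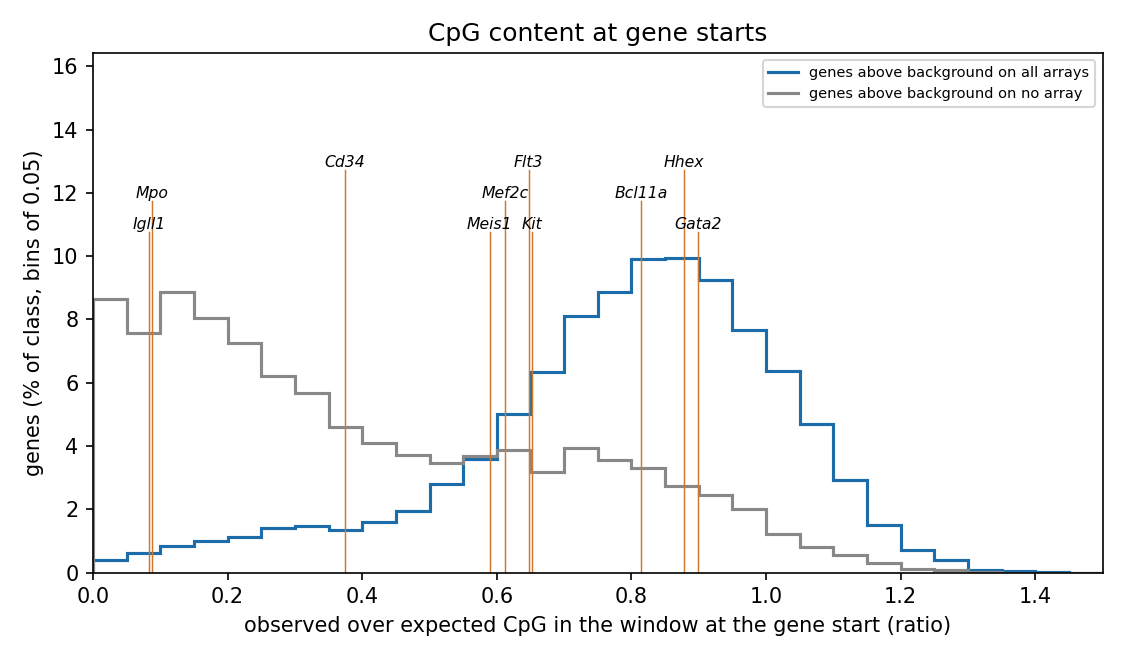
The observed over expected CpG ratio of the window at the gene start (horizontal axis), as the percent of genes in bins of 0.05 (vertical axis), for the genes above the limit on every array and for those above it on no array, with the 10 progenitor genes as vertical lines whose heights carry no value. Mpo and Igll1 lie at the low end, at 0.087 and 0.083, and Hhex and Gata2 lie where most of the genes above background do, at 0.878 and 0.90.

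The windows of Hhex and Mpo are shown because they lie at the ends of the range in CpG count with the same readout on the arrays. Hhex has 37 and Mpo, level with Igll1, has 2. Hhex lies on the plus strand at chr19:37434591-37434890 and Mpo on the plus strand at chr11:87793534-87793833, each 5′ to 3′ with every CG in capitals.
Hhex: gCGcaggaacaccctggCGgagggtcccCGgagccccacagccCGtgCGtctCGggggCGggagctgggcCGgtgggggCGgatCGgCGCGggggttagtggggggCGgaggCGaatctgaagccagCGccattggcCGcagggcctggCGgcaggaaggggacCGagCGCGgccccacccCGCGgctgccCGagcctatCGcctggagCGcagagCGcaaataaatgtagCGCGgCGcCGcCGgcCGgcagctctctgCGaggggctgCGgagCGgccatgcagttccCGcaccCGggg
Mpo: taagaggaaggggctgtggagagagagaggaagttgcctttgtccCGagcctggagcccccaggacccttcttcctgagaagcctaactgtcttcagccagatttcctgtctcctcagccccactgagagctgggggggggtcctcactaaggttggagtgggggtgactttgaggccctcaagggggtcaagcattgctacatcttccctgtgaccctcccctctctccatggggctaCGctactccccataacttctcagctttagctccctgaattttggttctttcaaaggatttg

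The project mapped Runx1, Ets1 and the E protein E47, so the windows were searched on both strands for short forms of their motifs. TGNGGT, a loosened form of the RUNX core TGYGGT (Y for C or T), was found in a window of 5 of the 10 genes. It was found in 45.8% of all 32851 windows. It also counts TGAGGT and TGGGGT, so the count and share are not those of the core itself. CAGNTG, an E-box form bound by E proteins, was found in 4 of the 10 and in 51.4% of windows. CGGAAG, an ETS core, was found in Mef2c and Meis1 and in 16.9% of windows. Kit, Gata2 and Mef2c have several windows, so their chance of a match is larger. Igll1 held 3 matches of CAGNTG, as 5.16% of windows do at least, and 3 of TGNGGT, as 3.28% do at least. Of the TGNGGT matches, those 67 and 29 bases before the start site read TGGGGT, which is not the RUNX core. The match 123 bases before it reads TGTGGT on the other strand. The Igll1 window is shown for its CAGNTG and TGNGGT matches. Those of CAGNTG begin 158, 87 and 8 bases before the start site and do not overlap those of TGNGGT. It lies on the minus strand at chr16:16863936-16864235 and is printed 5′ to 3′ along the gene, with CAGNTG of either strand in capitals.
Igll1: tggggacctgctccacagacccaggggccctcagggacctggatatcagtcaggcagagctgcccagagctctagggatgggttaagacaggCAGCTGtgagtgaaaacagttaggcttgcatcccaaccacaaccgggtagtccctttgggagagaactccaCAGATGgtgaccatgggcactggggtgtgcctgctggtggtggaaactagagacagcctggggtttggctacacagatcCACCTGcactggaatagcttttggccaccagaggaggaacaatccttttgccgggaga
A match is a run of letters, and no binding was measured on these arrays.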

How the data were processed

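Gene expression was measured on 3 Affymetrix arrays of DP thymocytes, 1 per littermate cohort. Per the labels' protocols, TRIzol was used for RNA after a bead sort for CD8 and for CD4. Formaldehyde is named before that sort, and it is unclear whether cells for RNA were fixed. The deposited file gives a log2 value for each probe set on each array. The log2 scale was read from their range, 1.6 to 14.94. Per the submitters' processing notes the R package affy was used, and its settings are not given in the sources used. The sorted values of the arrays differed by at most 0.15, so a global difference in RNA content would not be visible.

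Genes were named from the platform's annotation table. Of 35556 probe sets, 21789 have 1 symbol, 1621 several and 12146 none, and only the first were used. A RefSeq table (GRCm38.p6) held the gene IDs of 21698 and changed 0 symbols. A gene with several probe sets was represented by the brightest. The limit was the 95th percentile of other-organ genes on each array, so about 5% of those genes pass by design. The members and lists were chosen with earlier results of these data known. Named genes were the members, in each list the genes on the minority side of the limit where 5 or fewer, and otherwise the first 4 listed. Others are said to be named after their values were seen, which also holds for Vpreb1, Cd79a, Itgax, Adgre1, Cdh5, Kdr and the genes used to compare arrays.

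Variance between arrays was tested with R 4.3.3 and limma 3.58.1. A fit with an intercept alone over 28939 probe sets, without the 6617 unnamed ones of lowest number, was compared by an F test with a robust mean-dependent prior. It was tested on simulated data in which 1 array was shifted by at least 1 log2 unit for some probe sets. The widest range of a member was 0.6, so that trial does not cover spreads of the members' size. Tables were made with pandas 2.3.3 and numpy 2.4.6 under Python 3.11.15. With 1 group no test between conditions exists, 3 arrays limit the precision of every SD, and no gene is named for a pattern over arrays like a member's. Alternatives were other limits, other ways to represent a gene, quantile normalization, median centring, other priors and leaving out each array. Promoter windows are RefSeq's.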

Additional observations from a re-analysis of the deposited data

How the results depend on the processing

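No member lay above background on all arrays under any limit, normalization, choice of probe set or array left out. Most of these settings could not have changed that count. No member was above the main limit on any array, so a higher limit or a left-out array gives 0 again. Each member has 1 probe set, and median centring moves values and limit together. Only the lower limit and quantile normalization could have given another count. With the background median plus 1 as the limit, 3 members exceeded it on array 2 and 1 on array 3. None passed limma's variance test under any prior, normalization or array left out (0 in all cases). At an unadjusted p under 0.05, 0 or 1 member did so. The count was 0 for the robust prior that ignores level and without array 1, and 1 in the other cases. The variance test on probe sets above the limit could not be applied, since no member is among them. The same holds for a denominator of genes above the limit somewhere. The median member level, 6.21, ranged from 6.18 to 6.23 with 1 array left out (6.175 to 6.2325). Without array 1 and without array 3 it moved by more than the spread between arrays (SD 0.017 of the members' median). Without array 2 it did not. It also stayed within that spread under quantile normalization and median centring. The members' own levels each moved by less than their SD. With 1 of 3 arrays left out this holds for any gene by arithmetic, so it says nothing about stability. With the 99th percentile as the limit, the stem and progenitor count was 8 against 14, the early thymocyte count 5 against 9 and the endothelial and stromal count 2 against 4. The other lists stayed within 1.5 times, and so did every list with 1 array left out. A list of other-organ genes from an earlier analysis was not used here. No paired analysis was possible because there is 1 group. Values under the limit carry little signal over background, so their spread and order say little.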
